A study of Mus musculus with 12 samples.

Results

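Primary tumours of 4T07 and 4T1, mouse mammary carcinoma lines whose cells reach the lung, were compared with primary tumours of 67NR and 168FARN, whose cells do not. Members were chosen by the line named in the labels. All 12 arrays of the series belong to the comparison, 6 on each side and 3 for each line. The 4 lines are known as background to come from a single spontaneous mammary tumour of a BALB/c-type mouse. In mice, 67NR is known to stay at the primary site and 168FARN to spread as far as draining nodes, whereas 4T07 seeds the lung without visible outgrowth and 4T1 forms lung nodules. The arrays are of primary tumours, so arrival in the lung itself was not measured.

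All groups are untreated tumours grown from cultured cells of 1 line that were placed in the fourth mammary fat pad. The hosts were 3-month-old BALB/c females. The labels count 8 mice for 67NR, 11 for 168FARN, 15 for 4T07 and 13 for 4T1, and tumours were removed at an average of 1 to 2 cm. BALB/c is known as an immunocompetent strain, so a tumour holds host immune and stromal cells beside the carcinoma cells. Nothing used here ties each array to its own animal, so p-values describe how far these arrays spread, in part perhaps for technical reasons. Each side rests on 2 lines. With 2 lines against 2, an exact two-sided permutation test cannot give a p below 0.333, and the ability to reach the lung cannot be told apart from any other difference between these 2 pairs of lines.

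Carcinoma cells can hold an epithelial state, with E-cadherin junctions and keratin filaments, or a mesenchymal state in which these are switched off. The transcription factors Zeb1 and Snai2 are known to silence epithelial promoters by binding E-box sequences, and the RNA-binding proteins Esrp1 and Esrp2 set the epithelial choice of exons in transcripts such as Fgfr2 and Cd44. Low oxygen acts through a second kind of short sequence, the core of the hypoxia response element, in front of glycolytic genes.

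Promoters of genes that moved together across the 4 lines are shown first. Zeb1 and Snai2 moved opposite to the epithelial genes, and whether they act on these promoters was not tested. The epithelial promoters printed all hold an E-box match, which those of Jup, Krt14, Lad1 and Spint1 did not. The printed promoters are RefSeq entries on GRCm38.p6, from 250 bases before to 50 bases after the gene start, 5′ to 3′ on the strand of the gene. Capitals mark each match to the E-box CACCTG or its reverse complement CAGGTG in the first 3 sequences, and each match to ACGTG or its reverse complement CACGT, the hypoxia core, in the fourth. Spint2 (chr7:29281928-29282227, minus strand) encodes a membrane inhibitor of serine proteases, Epcam (chr17:87635729-87636028, plus strand) an epithelial adhesion molecule, Krt18 (chr15:102027966-102028265, plus strand) a keratin of simple epithelia, and Slc16a3 (chr11:120948817-120949116, plus strand) a lactate exporter.
Spint2: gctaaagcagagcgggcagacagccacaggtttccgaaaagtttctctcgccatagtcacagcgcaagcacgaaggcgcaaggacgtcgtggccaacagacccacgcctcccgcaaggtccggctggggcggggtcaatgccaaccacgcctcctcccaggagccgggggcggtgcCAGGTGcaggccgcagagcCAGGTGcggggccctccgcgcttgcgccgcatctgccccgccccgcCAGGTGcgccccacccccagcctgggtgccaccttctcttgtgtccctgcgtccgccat
Epcam: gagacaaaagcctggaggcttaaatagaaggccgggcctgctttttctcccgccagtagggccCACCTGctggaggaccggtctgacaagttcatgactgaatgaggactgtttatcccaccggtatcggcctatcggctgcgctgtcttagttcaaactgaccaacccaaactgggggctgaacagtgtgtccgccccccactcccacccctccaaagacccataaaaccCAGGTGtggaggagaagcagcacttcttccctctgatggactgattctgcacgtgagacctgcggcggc
Krt18: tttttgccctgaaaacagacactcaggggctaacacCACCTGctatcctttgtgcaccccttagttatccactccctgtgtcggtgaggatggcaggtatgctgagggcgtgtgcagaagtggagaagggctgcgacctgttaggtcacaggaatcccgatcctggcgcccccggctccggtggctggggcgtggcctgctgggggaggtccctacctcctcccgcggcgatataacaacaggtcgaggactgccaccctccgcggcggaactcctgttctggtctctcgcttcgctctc
Slc16a3: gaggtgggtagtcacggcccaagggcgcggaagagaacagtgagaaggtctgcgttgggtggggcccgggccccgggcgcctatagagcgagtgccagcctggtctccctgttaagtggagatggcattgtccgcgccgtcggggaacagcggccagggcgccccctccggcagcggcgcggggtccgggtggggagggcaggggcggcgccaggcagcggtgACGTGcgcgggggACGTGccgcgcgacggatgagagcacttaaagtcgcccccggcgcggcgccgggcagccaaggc

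The E-box stood in 13 of the 18 promoter entries (72.2%) found for the epithelial genes higher in all 4 pairs of lines, against 19.4% of the 15162 entries for all genes tested. Of the 23 genes, 15 had an entry, and 11 of these 15 held a match (22.2% of all genes with an entry did), namely Cdcp1, Cldn3, Cldn7, Epcam, F11r, Krt18, Krt7, Marveld2, Ocln, Rab25 and Spint2, with no match in Jup, Krt14, Lad1 and Spint1. Spint2 held 3 matches, beginning at -74, -55 and -9 from the gene start, and Epcam held 2, at -187 and -19. The hypoxia core stood in 7 of 14 entries (50%) of the hypoxia and glycolysis genes higher in all 4 pairs, against 22.7% of all entries. The E-box stood in 1 of these 14, and the hypoxia core in 3 of the 18 epithelial entries. Slc16a3 held 2, at -27 and -14. A match describes letters in this window and is not evidence of binding. A letter could count in both motifs, and no test was made of either share.

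Each gene was measured as the median log2 signal of its probesets, with at least 3 probesets, and 15025 genes were tested. The change of a gene below is the mean of 4T07 and 4T1 minus the mean of 67NR and 168FARN on this log2 scale, each line counting equally, with SE the standard error of that limma contrast and an adjusted p by Benjamini-Hochberg over all genes. Shared genes are those called at an adjusted p under 0.05, in 1 direction, in all 4 pairs that set a lung-reaching line against a line of the other side. Array medians over all probesets lay between 7.21 and 7.57. The 335 olfactory receptor genes, taken as a scale of background, read 3.12 at their median and 5.08 at their 95th percentile, so a level under 5.08 is in the background range and a change from or to it has no measured fold.

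Tumours within a line correlated at a mean r of 0.980 to 0.988 over genes, 4T07 with 4T1 at 0.976, 67NR with 168FARN at 0.947, and lines across the sides at 0.931 to 0.943. Some arrays stood apart from their line. Skeletal muscle markers averaged 7.89 and 8.71 on 168FARN arrays 2 and 3, against 5.65 to 6.51 on the other 10 arrays, and the epithelial list averaged 8.23 on 4T07 array 3 against 7.31 and 7.28 on arrays 1 and 2. Defining markers of the tumours were uneven: Vim, the mesenchymal intermediate filament, read between 13.26 and 13.62 on every array, while Epcam in 67NR read 5.24, 5.13 and 6.83, and Cdh1, which encodes E-cadherin, 6.23, 6.04 and 6.36.

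The side contrast called 5181 of 15025 genes (34.5%), 2015 higher (13.4%) and 3166 lower (21.1%) in the lung-reaching lines. The single pairs called 23.7% (4T07 against 67NR), 28.3% (4T07 against 168FARN), 22.3% (4T1 against 67NR) and 31.2% (4T1 against 168FARN). The test in all 4 pairs kept 584 higher (3.89%) and 603 lower (4.01%), 1187 in all (7.9%). A change of at least 2-fold in each pair was met by 287 genes that rose (1.91%) and 178 that fell (1.18%). On 801 genes (5.33%) every 4T07 and 4T1 array lay above every array of the other side, and on 1095 (7.29%) every one lay below. Of the 287, 286 had arrays that did not overlap between sides, and 175 of the 178, which their selection on the same arrays favours. The median change over all genes was -0.07. The remaining 3994 genes called by the side contrast were not called in every pair, although 3095 of them had 1 sign in all 4 pairs.

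The counts depend on what is taken as the unit. With line as a random block (consensus correlation 0.319 between arrays of a line, applied to every gene), 783 genes were called higher and 884 lower. All 465 genes shared at 2-fold or more stayed called, which their selection on the same arrays favours. With the 4 line means as the only samples, 117 were higher and 47 lower, 162 of the 465 among them, a count that the same selection favours.

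The 15 genes that rose most in their weakest pair included genes of epithelial surfaces, secretion and signalling. Hhip, which encodes a membrane protein that binds and holds back hedgehog ligands, read 3.49, 4.34 and 3.48 in 67NR, 3.80, 4.01 and 4.07 in 168FARN, 9.11, 9.54 and 9.42 in 4T07, and 10.28, 10.13 and 9.91 in 4T1. Its change was 5.87 (SE 0.16, adjusted p = 9.55e-11), the low side lying in the background range. Tslp, an epithelial cytokine acting on dendritic and T cells, read 3.05, 3.08 and 2.83 in 67NR, 3.38, 3.48 and 2.70 in 168FARN, 10.85, 11.32 and 10.23 in 4T07, and 7.43, 7.64 and 7.62 in 4T1. The change was 6.10 (SE 0.18, adjusted p = 1.5e-10), again from background, and 4T07 stood above 4T1 by more than the spread of either line. Krt18 read 5.96, 5.35 and 7.11 in 67NR, 7.44, 7.09 and 7.12 in 168FARN, 11.71, 10.91 and 12.40 in 4T07, and 12.39, 12.18 and 12.65 in 4T1. This gave a change of 5.36 (SE 0.29, adjusted p = 1.79e-08), which is 41.1-fold. Wfdc2, a secreted epithelial protein with a whey acidic protein domain, read 4.91, 5.67 and 5.61 in 67NR, 5.98, 6.51 and 5.57 in 168FARN, 10.48, 10.60 and 11.08 in 4T07, and 10.33, 10.71 and 10.76 in 4T1. The change of 4.95 (SE 0.19, adjusted p = 8.93e-10) corresponds to 31.0-fold. In each of these 4 genes the 6 arrays of 4T07 and 4T1 lay wholly above the 6 others.

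**Figure D1:**
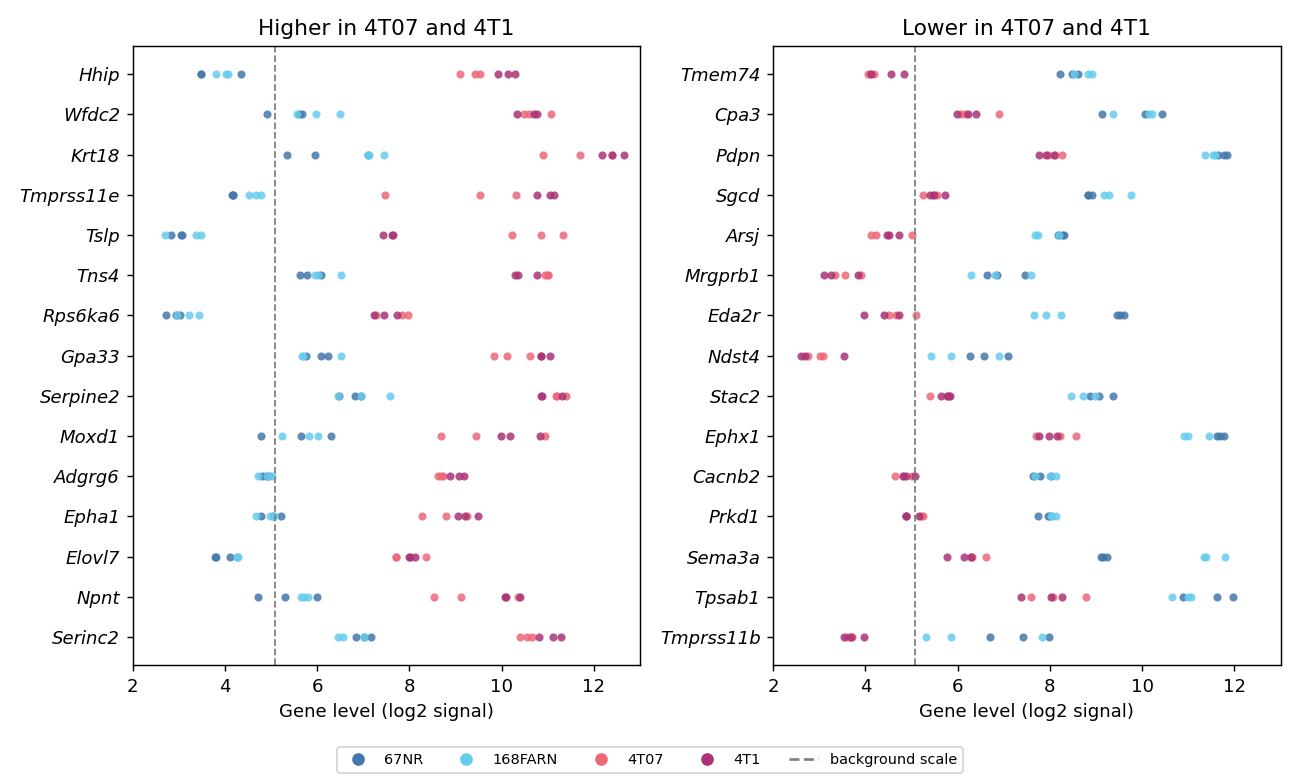
Log2 level of the 15 genes with the largest rise and the 15 with the largest fall in their weakest of 4 pairs; each point is 1 array, coloured by line, and the dashed line marks 5.08, the 95th percentile of olfactory receptor genes. In each gene drawn, the 6 arrays of 4T07 and 4T1 stand apart from the 6 arrays of 67NR and 168FARN, and Tslp also separates 4T07 from 4T1.

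Serpine2, an extracellular inhibitor of thrombin and plasminogen activators, lay between 6.46 and 7.58 in 67NR and 168FARN (median 6.88) and between 10.86 and 11.41 in 4T07 and 4T1 (median 11.19), a change of 4.27 (SE 0.17, adjusted p = 1.36e-09). Tns4, a tensin of focal adhesions found in epithelia, lay between 5.64 and 6.51 in 67NR and 168FARN (median 5.99) and between 10.30 and 11.01 in 4T07 and 4T1 (median 10.86), a 26.6-fold difference. Gpa33, an epithelial surface antigen of the immunoglobulin family, lay between 5.66 and 6.51 in 67NR and 168FARN (median 5.92) and between 9.83 and 11.05 in 4T07 and 4T1 (median 10.74). Npnt, an integrin ligand of basement membranes, lay between 4.72 and 6.0 in 67NR and 168FARN (median 5.68) and between 8.53 and 10.41 in 4T07 and 4T1 (median 10.09), and Serinc2 lay between 6.44 and 7.16 in 67NR and 168FARN (median 6.92) and between 10.39 and 11.29 in 4T07 and 4T1 (median 10.73). The serine protease Tmprss11e rose from background to 9.54, 7.48 and 10.31 in 4T07 and 11.04, 10.77 and 11.13 in 4T1. The ephrin receptor Epha1 (change 4.06), the adhesion G protein-coupled receptor Adgrg6 (3.98), the fatty acid elongase Elovl7 (3.90) and the kinase Rps6ka6 (4.53) also rose from the background range, and Moxd1, a monooxygenase-like protein, rose by 4.37.

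Among the 15 that fell most, Pdpn, which encodes the mucin-type glycoprotein podoplanin, read 11.64, 11.85 and 11.77 in 67NR, 11.54, 11.58 and 11.37 in 168FARN, 7.97, 8.11 and 8.27 in 4T07, and 7.76, 7.91 and 8.09 in 4T1. The sides differed by -3.61 (SE 0.10, adjusted p = 9.95e-11), a 12.2-fold difference with both sides well above background. Ephx1, microsomal epoxide hydrolase, read 11.63, 11.77 and 11.69 in 67NR, 11.45, 10.91 and 10.99 in 168FARN, 7.69, 8.56 and 8.22 in 4T07, and 7.76, 8.16 and 7.98 in 4T1. Between the sides the change was -3.35 (SE 0.15, adjusted p = 4.18e-09). Sgcd, the delta subunit of the sarcoglycan complex, read 8.82, 8.83 and 8.92 in 67NR, 9.28, 9.75 and 9.17 in 168FARN, 5.47, 5.25 and 5.55 in 4T07, and 5.48, 5.39 and 5.72 in 4T1. The side contrast was -3.65 (SE 0.12, adjusted p = 2.23e-10). Tmem74, a lysosomal membrane protein, fell into the background range: 8.48, 8.60 and 8.22 in 67NR, 8.52, 8.91 and 8.82 in 168FARN, 4.05, 4.09 and 4.18 in 4T07, and 4.13, 4.83 and 4.56 in 4T1. 4T07 and 4T1 differed from the others by -4.28 (SE 0.13, adjusted p = 1.67e-10). No array of one side reached the other in these 4 genes.

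The secreted guidance cue Sema3a lay between 9.10 and 11.80 in 67NR and 168FARN (median 10.29) and between 5.76 and 6.61 in 4T07 and 4T1 (median 6.29), a change of -4.10 (SE 0.13, adjusted p = 1.67e-10), with 168FARN above 67NR. The ectodysplasin receptor Eda2r fell by 4.17 into the background range, with 67NR above 168FARN. Mast cell genes belong to this group: the carboxypeptidase Cpa3 lay between 9.13 and 10.42 in 67NR and 168FARN (median 10.11) and between 5.99 and 6.90 in 4T07 and 4T1 (median 6.21), the tryptase Tpsab1 between 10.65 and 11.98 in 67NR and 168FARN (median 11.03) and between 7.38 and 8.78 in 4T07 and 4T1 (median 8.05), and the receptor Mrgprb1 between 6.28 and 7.59 in 67NR and 168FARN (median 6.83) and between 3.09 and 3.91 in 4T07 and 4T1 (median 3.45). In these bulk samples, fewer cells of a type and less RNA per cell cannot be told apart. Stac2 (change -3.21), the kinase Prkd1 (-2.95), the calcium channel subunit Cacnb2 (-3.00), the arylsulfatase Arsj (-3.55), the heparan sulfate enzyme Ndst4 (-3.41) and the protease Tmprss11b (-3.16) complete it, and except for Stac2 their 4T07 and 4T1 means lay close to or within the background range.

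Epithelial junction and keratin genes formed the list with the highest share of shared members. Of 39 measured, 23 rose in all 4 pairs (59.0%, against 3.89% of all genes) and 0 fell. By the side contrast 30 rose (76.9%, against 13.4% of all genes), 0 fell and 9 did not pass. The median change of the list was 1.90, and leaving out any 1 array gave 21 to 24. Besides Krt18, Spint2 read 7.61, 7.48 and 7.55 in 67NR, 7.60, 7.69 and 7.55 in 168FARN, 10.64, 11.03 and 11.46 in 4T07, and 11.28, 11.52 and 11.36 in 4T1. The change was 3.63 (SE 0.13, adjusted p = 5.15e-10), and the 4T07 and 4T1 arrays all lay above the others. Epcam read 5.24, 5.13 and 6.83 in 67NR, 6.99, 7.31 and 6.73 in 168FARN, 9.52, 8.83 and 11.11 in 4T07, and 10.21, 10.19 and 10.68 in 4T1. This gave a change of 3.72 (SE 0.36, adjusted p = 4.49e-06), with array 3 the highest of 4T07. Cdh1 read 6.23, 6.04 and 6.36 in 67NR, 6.59, 6.45 and 6.74 in 168FARN, 8.39, 8.20 and 9.32 in 4T07, and 8.51, 8.84 and 9.11 in 4T1. The sides differed by 2.33 (SE 0.18, adjusted p = 5.35e-07), a 5.02-fold difference. All 3 genes separated the sides without overlap.

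The transmembrane glycoprotein Cdcp1 (change 3.75), the anchoring filament protein Lad1 (3.65), the cornified envelope scaffold Ppl (2.83), the protease inhibitor Spint1 (2.91) and its target protease St14 (2.22), the desmosomal cadherin Dsg2 (2.64) and the claudins Cldn3 (1.73) and Cldn7 (1.66) rose in all 4 pairs too. Krt8, the partner of Krt18, did not: it read 6.47, 6.07 and 7.26 in 67NR, 11.44, 11.34 and 11.53 in 168FARN, 11.58, 11.15 and 12.21 in 4T07, and 12.05, 11.91 and 12.25 in 4T1. The side contrast gave 2.84 (SE 0.21, adjusted p = 2.95e-07), but 168FARN already lay at the level of 4T07, and the call was lost with line as a random block. Krt5 (0.52), Cdh3 (0.36), Cldn1 (-0.50) and Ehf (0.42) were among the 9 that did not pass. On the list's mean level, 67NR and 168FARN arrays lay between 5.76 and 6.13 and 4T07 and 4T1 arrays between 7.28 and 8.23.

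**Figure D2:**
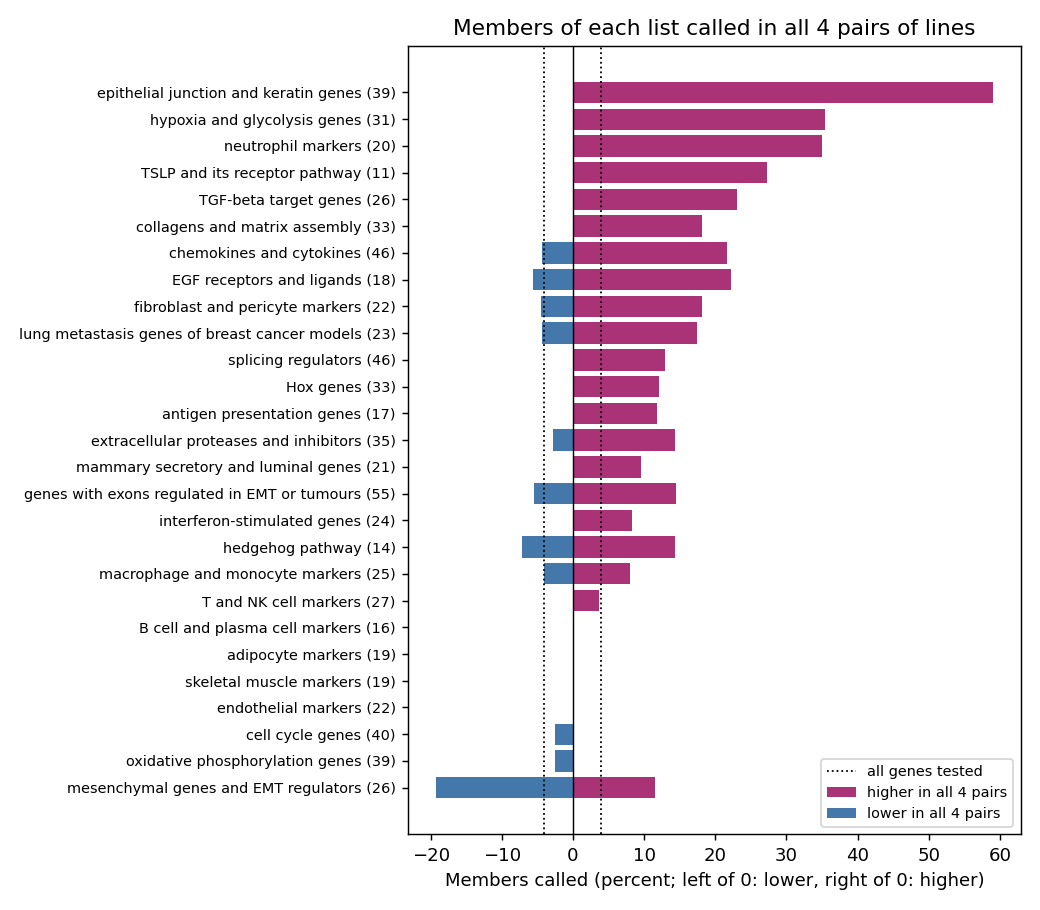
Percent of the measured members of each list with at least 10 (number in brackets) that were called in all 4 pairs, higher to the right of 0 and lower to the left; dotted lines mark the same percentages over all 15025 genes, 3.89% and 4.01%. The epithelial list reaches 59.0% higher, and of the lists drawn the mesenchymal list has the highest share lower, 19.2%.

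Mesenchymal genes and regulators of the epithelial-mesenchymal transition (EMT) moved both ways. Of 26 measured, 5 fell in all 4 pairs (19.2%, against 4.01% of all genes) and 3 rose (11.5%, against 3.89%). The median change was 0.04. The count of 3 became 5 without 168FARN array 1 or with the mean over probesets, and the count of 5 became 3 when genes needed 5 probesets. Zeb1 read 8.53, 8.48 and 8.54 in 67NR, 8.74, 8.27 and 8.42 in 168FARN, 7.04, 6.58 and 7.01 in 4T07, and 6.83, 7.19 and 7.02 in 4T1. Between the sides the change was -1.55 (SE 0.12, adjusted p = 6.09e-07). Snai2 read 8.05, 8.22 and 8.11 in 67NR, 7.73, 8.40 and 8.18 in 168FARN, 6.12, 6.28 and 6.46 in 4T07, and 5.91, 5.66 and 5.95 in 4T1. The side contrast was -2.05 (SE 0.13, adjusted p = 6.48e-08). Both repressors were lower on every 4T07 and 4T1 array than on any array of the other side.

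The homeodomain factor Prrx1 lay between 10.78 and 11.88 in 67NR and 168FARN (median 11.18) and between 7.81 and 8.62 in 4T07 and 4T1 (median 8.45), a change of -2.87 (SE 0.14, adjusted p = 7.04e-09), Msx2 fell by 2.46 and the calcium-binding S100a4 by 2.45. The 3 that rose were the cadherin Cdh11 (change 1.99, SE 0.23, adjusted p = 1.79e-05), the ecto-nucleotidase Nt5e (2.34, with 168FARN well above 67NR) and the surface glycoprotein Thy1 (1.22). Vim did not pass the test (change -0.08, SE 0.08, adjusted p = 0.526), nor did Zeb2 (-0.08), Snai1 (0.32) or Fn1 (0.16). Cdh2, which encodes N-cadherin, was not shared: it read between 9.87 and 9.96 in 67NR and between 4.73 and 5.67 on all other arrays. Its side contrast of -1.98 (SE 0.14, adjusted p = 2.06e-07) was lost with line as a random block. Twist1 (-1.75) and Twist2 (-1.25) passed the side contrast alone.

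Among 46 splicing regulators, 6 rose in all 4 pairs (13.0%, against 3.89% of all genes) and 0 fell. The median change was 0.09 (-0.07 over all genes), and the count was 4 to 6 when any 1 array was left out. Esrp1, the epithelial splicing factor, read 4.03, 4.43 and 5.15 in 67NR, 4.91, 4.83 and 4.82 in 168FARN, 7.68, 6.84 and 9.55 in 4T07, and 7.65, 8.09 and 7.82 in 4T1. 4T07 and 4T1 differed from the others by 3.25 (SE 0.35, adjusted p = 1.16e-05), from the background range, with 4T07 array 3 the highest of all. Its relative Esrp2 read 5.46, 5.29 and 5.62 in 67NR, 5.39, 5.69 and 5.60 in 168FARN, 5.99, 6.20 and 7.12 in 4T07, and 6.92, 6.97 and 7.17 in 4T1. The change was 1.22 (SE 0.17, adjusted p = 9.55e-05), a smaller shift that still left the sides without overlap. Celf4 (1.12), Mbnl2 (1.00), the RNA helicase Ddx17 (0.94) and Tia1 (0.54) were the others. Rbm47 (1.25), Rbfox2 (-0.41) and Mbnl1 (-0.28) passed only the side contrast, and Ptbp1 (0.15) and the SR protein gene Srsf1 (-0.13) did not pass it.

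**Figure D3:**
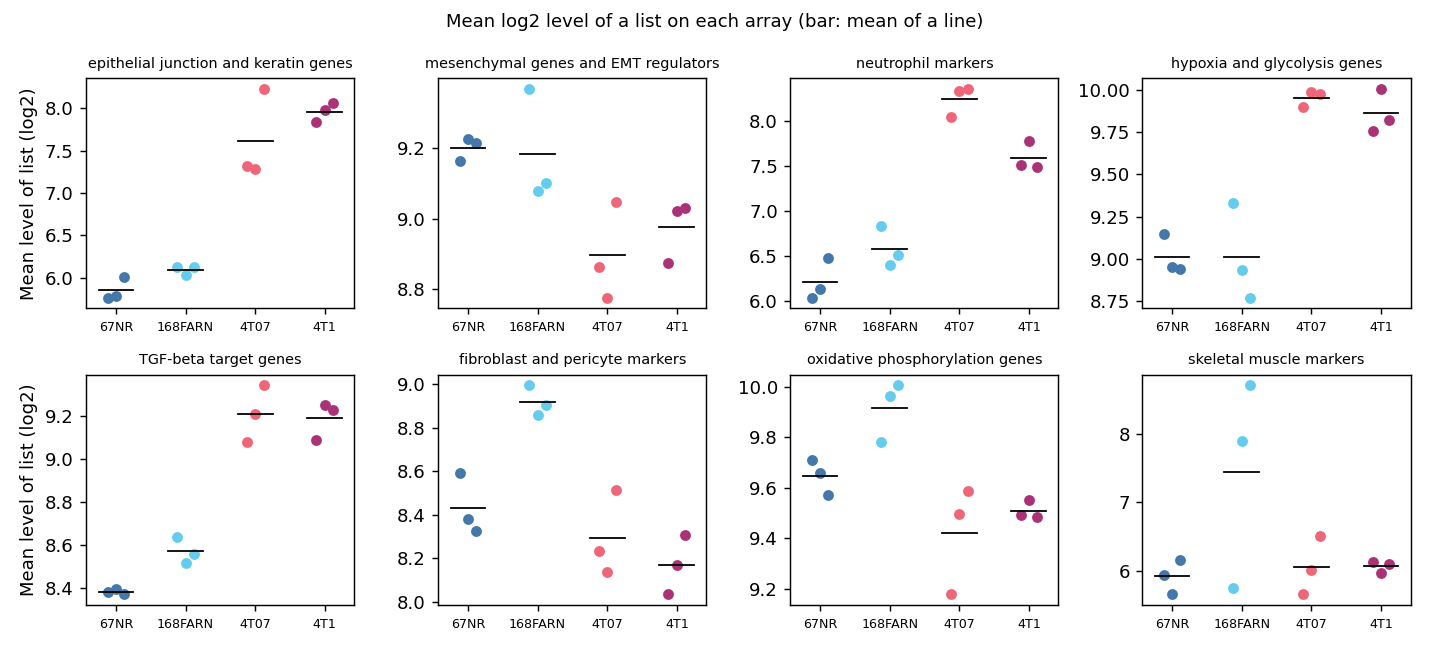
Mean log2 level over the members of 8 lists on each array, with the mean of each line as a bar; vertical axes differ between panels. Epithelial, neutrophil, hypoxia and TGF-beta lists place all 4T07 and 4T1 arrays above the other side, the epithelial mean of 4T07 array 3 is the highest of all, and the muscle list is high on 168FARN arrays 2 and 3.

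Ligands and receptors of the EGF family, listed together with feedback genes such as Spry1, moved both ways. Of 18 genes, 4 rose (22.2%, against 3.89% of all genes) and 1 fell (5.56%, against 4.01%) in all 4 pairs. Tgfa, the ligand TGF-alpha, read 5.61, 5.75 and 6.05 in 67NR, 5.92, 5.68 and 5.48 in 168FARN, 8.72, 8.29 and 8.74 in 4T07, and 8.90, 9.07 and 9.06 in 4T1. This gave a change of 3.05 (SE 0.12, adjusted p = 1.38e-09). Ereg, the ligand epiregulin, went the other way: 9.33, 9.71 and 9.20 in 67NR, 6.99, 7.17 and 7.07 in 168FARN, 5.29, 5.37 and 5.64 in 4T07, and 5.46, 5.18 and 5.43 in 4T1. The sides differed by -2.85 (SE 0.12, adjusted p = 1.39e-09), with 67NR above 168FARN. The receptor Egfr lay between 5.61 and 6.61 in 67NR and 168FARN (median 6.09) and between 7.06 and 7.83 in 4T07 and 4T1 (median 7.33), a change of 1.25 (SE 0.18, adjusted p = 0.000135), and the ligand Epgn rose by 1.26 from background. Spry1, a feedback inhibitor of receptor tyrosine kinases, rose by 2.60, and Btc (-1.31), Erbb3 (0.56) and Dusp4 (1.58) passed the side contrast alone. Hbegf (-0.01) did not pass it.

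In the hedgehog pathway, 2 of 14 genes rose (14.3%, against 3.89% of all genes) and 1 fell (7.14%, against 4.01%) in all 4 pairs, all of them proteins of the cell surface that bind the ligand. Hhip itself counts among the 2, and this list too was chosen with earlier results of these data known. Its median change was 0.16, against -0.07 over all genes. Besides Hhip, the co-receptor Cdon read 6.35, 6.55 and 6.55 in 67NR, 8.34, 8.41 and 8.66 in 168FARN, 10.58, 11.02 and 10.36 in 4T07, and 9.92, 9.91 and 9.57 in 4T1. Between the sides the change was 2.75 (SE 0.13, adjusted p = 5.78e-09). Gas1, another co-receptor, fell: 10.25, 10.16 and 10.02 in 67NR, 10.14, 10.52 and 10.11 in 168FARN, 7.69, 7.39 and 8.15 in 4T07, and 8.43, 8.28 and 8.37 in 4T1. The side contrast was -2.15 (SE 0.13, adjusted p = 7.52e-08). The receptor Ptch1, itself a target of the pathway, lay between 6.88 and 8.26 in 67NR and 168FARN (median 7.76) and between 7.22 and 7.90 in 4T07 and 4T1 (median 7.63) and did not pass the test (change -0.05, SE 0.15, adjusted p = 0.846). The target Gli1 passed the side contrast with -0.55 (SE 0.11, adjusted p = 0.00189) and lost it with line as a random block, and the ligands Shh (0.07) and Ihh (-0.07) did not pass.

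The list of 11 genes around TSLP was chosen with earlier results of these data known. Its median change was 0.04, against -0.07 over all genes. In all 4 pairs 3 rose, Tslp itself included (27.3%, against 3.89% of all genes), and 0 fell. Besides Tslp, these were the receptor chain Il7r, between 6.30 and 7.41 in 67NR and 168FARN (median 7.02) and between 7.85 and 8.99 in 4T07 and 4T1 (median 8.44), a change of 1.45 (SE 0.14, adjusted p = 5.08e-06), and the kinase Jak2, between 8.36 and 8.93 in 67NR and 168FARN (median 8.74) and between 9.36 and 10.56 in 4T07 and 4T1 (median 10.29), a change of 1.44 (SE 0.17, adjusted p = 2.86e-05). Crlf2, the specific receptor chain of TSLP, was not among the genes tested. Il7 (-1.52) passed the side contrast alone, and Stat5a (0.06) and Stat5b (0.04) did not pass it.

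Of 26 TGF-beta target genes, 16 rose by the side contrast (61.5%, against 13.4% of all genes) and 0 fell. In all 4 pairs 6 rose (23.1%, against 3.89% of all genes; 10 after quantile normalization), and the median change was 0.64. Ccn2, a matricellular protein, read 8.15, 8.23 and 8.32 in 67NR, 8.49, 8.10 and 7.87 in 168FARN, 11.42, 11.72 and 11.18 in 4T07, and 9.43, 9.83 and 10.21 in 4T1. 4T07 and 4T1 differed from the others by 2.44 (SE 0.15, adjusted p = 8.55e-08), 4T07 lying above 4T1. The latent TGF-beta binding protein Ltbp2 lay between 8.10 and 8.64 in 67NR and 168FARN (median 8.34) and between 9.46 and 9.82 in 4T07 and 4T1 (median 9.69), the repressor Skil between 8.99 and 9.30 in 67NR and 168FARN (median 9.14) and between 10.00 and 10.60 in 4T07 and 4T1 (median 10.33) and the activin subunit Inhba between 7.28 and 8.40 in 67NR and 168FARN (median 7.70) and between 8.98 and 9.59 in 4T07 and 4T1 (median 9.38). Bhlhe40 (0.72) and Id3 (1.00) were the others, although Id3 was no longer called in all 4 pairs without any 1 of 11 arrays (each array except 4T07 array 1). Smad7 (0.58) and Pmepa1 (1.27) passed the side contrast alone, and Ccn1 (0.09) did not pass.

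Of 33 collagen and matrix assembly genes, 6 rose in all 4 pairs (18.2%, against 3.89% of all genes) and 0 fell, with 4 to 8 when any 1 array was left out. The type I collagen chain Col1a2 read 9.68, 8.90 and 9.33 in 67NR, 9.51, 8.93 and 9.67 in 168FARN, 11.30, 10.53 and 11.33 in 4T07, and 10.95, 10.99 and 11.30 in 4T1. The change was 1.73 (SE 0.19, adjusted p = 1.08e-05). Its partner Col1a1 rose by 1.52 and the glycoprotein Tnc, tenascin C, by 2.47, from 8.25 to 10.71 on average. Col7a1 (1.20), Fbn1 (0.99) and the lysyl oxidase Loxl2 (1.27) completed the group. The basement membrane collagens Col4a1 (-0.47) and Col4a2 (-0.44) did not pass the test.

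Fibroblast and pericyte markers moved both ways, 5 of 22 rising (22.7%, against 13.4% of all genes) and 13 falling (59.1%, against 21.1%) by the side contrast, with a median change of -0.52. In all 4 pairs 4 rose (18.2%, against 3.89%) and 1 fell (4.55%, near the 4.01% of all genes). The count of 4 fell to 2 without 67NR array 1, 67NR array 3, 4T07 array 1, 4T1 array 1 or 4T1 array 3 or with each pair fitted on its own 6 arrays, and to 1 without 4T07 array 3. Cd34, a surface sialomucin, was the shared one that fell: 11.08, 11.00 and 10.99 in 67NR, 11.68, 12.19 and 12.02 in 168FARN, 8.58, 8.33 and 9.21 in 4T07, and 8.40, 9.25 and 9.02 in 4T1. This gave a change of -2.69 (SE 0.18, adjusted p = 1.07e-07). Fbln2, Mfap5 and Col14a1 were among the 4 that rose in all 4 pairs. Of 20 alternative settings, 16, 10 and 13 in turn kept their call. Pdgfra (-0.45), Pdgfrb (-0.77), Dcn (-0.94) and Cxcl12 (-1.18) passed the side contrast in the downward direction, and Postn (1.45) in the upward one. The mean level of the list lay between 8.03 and 8.52 in 4T07 and 4T1 and between 8.32 and 9.0 in the other lines, so its arrays overlapped. The part of stromal cells in the matrix results was not tested.

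Extracellular proteases and their inhibitors gave 5 of 35 that rose in all 4 pairs (14.3%, against 3.89% of all genes) and 1 that fell (2.86%, under the 4.01% of all genes). Besides Tmprss11e and Serpine2, they were 3 matrix metalloproteinases. The collagenase Mmp13 read 7.13, 6.53 and 6.63 in 67NR, 7.08, 6.18 and 6.52 in 168FARN, 9.48, 8.69 and 9.82 in 4T07, and 8.58, 9.10 and 9.32 in 4T1. The sides differed by 2.49 (SE 0.22, adjusted p = 1.64e-06). The macrophage elastase Mmp12 read 8.80, 6.36 and 7.80 in 67NR, 7.75, 6.06 and 5.33 in 168FARN, 10.22, 10.04 and 10.36 in 4T07, and 9.73, 10.46 and 9.82 in 4T1. Between the sides the change was 3.09 (SE 0.42, adjusted p = 7.61e-05), with the arrays of 67NR and 168FARN widely spread, from 5.33 to 8.80. Mmp3, stromelysin, lay between 8.35 and 9.08 in 67NR and 168FARN (median 8.58) and between 9.80 and 10.61 in 4T07 and 4T1 (median 10.07). The fall of Timp2 (-0.53) lost its call in 1 or more pairs without any 1 of 9 arrays, namely 67NR arrays 1, 2 and 3, 168FARN arrays 1 and 3, 4T07 array 2 and 4T1 arrays 1, 2 and 3, and in fits of each pair on its own 6 arrays, which left 0.

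Hypoxia and glycolysis genes rose: 20 of 31 by the side contrast (64.5%, against 13.4% of all genes) with 0 lower. In all 4 pairs 11 rose (35.5%, against 3.89% of all genes), a count of 8 to 12 when any 1 array was left out. The median change was 0.73. The aldolase Aldoc read 6.51, 6.33 and 6.40 in 67NR, 6.67, 6.50 and 6.74 in 168FARN, 9.15, 9.58 and 9.96 in 4T07, and 9.47, 9.60 and 9.60 in 4T1. The side contrast was 3.03 (SE 0.13, adjusted p = 2.01e-09). Slc16a3, whose promoter is printed above, read 8.57, 7.60 and 7.64 in 67NR, 8.48, 7.91 and 7.52 in 168FARN, 9.92, 9.92 and 10.02 in 4T07, and 10.07, 10.28 and 9.93 in 4T1. 4T07 and 4T1 differed from the others by 2.07 (SE 0.19, adjusted p = 2.61e-06). The carbonic anhydrase Car9 read 6.52, 6.32 and 6.14 in 67NR, 8.86, 7.79 and 6.67 in 168FARN, 9.64, 9.81 and 9.45 in 4T07, and 9.71, 10.27 and 9.63 in 4T1. The change was 2.70 (SE 0.28, adjusted p = 7.38e-06), with 168FARN array 1 nearest to the other side. The 3 genes separated the sides without overlap.

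Car12 (2.74), the enolase Eno2 (2.43), the pyruvate dehydrogenase kinase Pdk1 (1.68), Pfkfb3 (1.27), the hexokinase Hk2 (1.20), the phosphofructokinases Pfkp (0.86) and Pfkl (0.88) and Ankrd37 (1.01) rose in all 4 pairs too. Hif1a (0.11), Vegfa (0.12), Pgk1 (0.17) and Pkm (0.16) did not pass the test. Of genes of oxidative phosphorylation, 18 of 39 fell by the side contrast (46.2%, against 21.1% of all genes) and 0 rose, with a median change of -0.27. The electron carrier subunit Cyc1 (-0.78) was the 1 that fell in all 4 pairs (2.56%, under the 4.01% of all genes). That count was 2 without 67NR array 3 or with replicate number as a block, and 4 with the mean over probesets. The oxidative phosphorylation list averaged 9.78, 9.96 and 10.00 on the 168FARN arrays against 9.57 to 9.71 in 67NR and 9.18 to 9.59 in 4T07 and 4T1. Muscle markers were high on 168FARN arrays 2 and 3 but averaged 5.75 on array 1. Their part in the oxidative phosphorylation values was not tested.

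Cell cycle genes fell by the side contrast in 23 of 40 (57.5%, against 21.1% of all genes) with 0 higher and a median change of -0.38. Cdkn1a, the p21 inhibitor of cyclin-dependent kinases, was the 1 that fell in all 4 pairs (2.5%, under the 4.01% of all genes). It read 10.73, 10.88 and 10.83 in 67NR, 10.81, 10.61 and 9.79 in 168FARN, 8.58, 8.73 and 8.85 in 4T07, and 8.61, 9.16 and 8.50 in 4T1. This gave a change of -1.87 (SE 0.17, adjusted p = 2.55e-06). The count of 1 became 5 without 168FARN array 1, 4 without 4T07 array 3 or with the mean over probesets, and 2 after quantile normalization, with genes limited to those above background, with trend and robust variance or with the replicate block. Mki67 (-0.54), Ccna2 (-0.69) and Cdk1 (-0.68) passed the side contrast, and Top2a (-0.07) and Pcna (0.07) did not.

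Neutrophil markers were the immune list with the highest share of shared members. Of 20, 19 rose by the side contrast (95%, against 13.4% of all genes) and 7 in all 4 pairs (35.0%, against 3.89%), a count of 5 to 7 when any 1 array was left out, with a median change of 1.09. Padi4, an enzyme that citrullinates histones, read 5.62, 5.67 and 5.63 in 67NR, 7.86, 6.33 and 6.49 in 168FARN, 10.05, 10.60 and 10.25 in 4T07, and 10.22, 10.59 and 10.08 in 4T1. The sides differed by 4.03 (SE 0.22, adjusted p = 2.65e-08). The calgranulin S100a9 read 5.02, 5.03 and 6.19 in 67NR, 6.25, 4.92 and 4.73 in 168FARN, 8.86, 8.23 and 8.59 in 4T07, and 7.74, 7.85 and 7.24 in 4T1. Between the sides the change was 2.73 (SE 0.28, adjusted p = 5.87e-06). Lcn2, an iron-siderophore carrier that epithelia also make, read 8.02, 8.54 and 9.09 in 67NR, 9.25, 8.20 and 8.48 in 168FARN, 11.38, 11.02 and 12.49 in 4T07, and 12.04, 12.78 and 12.52 in 4T1. The side contrast was 3.44 (SE 0.27, adjusted p = 6.38e-07). Ngp (2.91), Trem1 (2.07), S100a8 (2.08) and the collagenase Mmp8 (1.81) were the others. On the list's mean level, 4T07 and 4T1 arrays lay between 7.49 and 8.36 and the others between 6.03 and 6.83. S100a8 was not called in all 4 pairs without 168FARN array 2, 168FARN array 3 or 4T1 array 2.

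Of 46 chemokines and cytokines, 10 rose in all 4 pairs (21.7%, against 3.89% of all genes; 8 to 11 when any 1 array was left out) and 2 fell (4.35%, near the 4.01% of all genes). Csf3, the granulocyte colony-stimulating factor, read 5.15, 5.36 and 5.56 in 67NR, 4.98, 5.62 and 5.73 in 168FARN, 7.09, 6.84 and 7.30 in 4T07, and 7.44, 7.62 and 7.28 in 4T1. 4T07 and 4T1 differed from the others by 1.86 (SE 0.15, adjusted p = 6.22e-07). Il1b lay between 7.95 and 8.75 in 67NR and 168FARN (median 8.49) and between 9.65 and 10.69 in 4T07 and 4T1 (median 10.22), Il1a between 3.26 and 6.10 in 67NR and 168FARN (median 4.54) and between 6.79 and 7.81 in 4T07 and 4T1 (median 7.15) and Il23a between 4.95 and 6.39 in 67NR and 168FARN (median 5.59) and between 7.12 and 8.23 in 4T07 and 4T1 (median 7.88). The neutrophil attractant Cxcl2 rose by 1.91, although the call in all 4 pairs was lost without 67NR array 2 or 4T07 array 1. Cxcl14 (1.32), Cxcl11 (1.45), Cxcl16 (0.84) and Il1rn (0.98) were also higher. The alarmin Il33 fell: 10.06, 10.25 and 9.95 in 67NR, 12.13, 11.71 and 11.34 in 168FARN, 8.04, 8.39 and 7.88 in 4T07, and 7.63, 7.91 and 7.72 in 4T1. The change was -2.98 (SE 0.14, adjusted p = 7.04e-09). The monocyte attractant Ccl2 lay between 9.46 and 10.67 in 67NR and 168FARN (median 9.48) and between 7.38 and 7.97 in 4T07 and 4T1 (median 7.74), a change of -1.97 (SE 0.18, adjusted p = 2.83e-06), and Il6 (0.16), Cxcl1 (-0.04) and Csf1 (0.18) did not pass the test. Neutrophil markers moved in the same direction between the sides, and their part in these cytokine values was not tested.

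In the lists for macrophages, T and NK cells and B cells, 8.0%, 3.7% and 0% of members rose in all 4 pairs, against 3.89% of all genes. The shares that fell were 4.0%, 0% and 0%, against 4.01% of all genes. The pan-leukocyte gene Ptprc lay between 9.13 and 9.93 in 67NR and 168FARN (median 9.50) and between 9.63 and 10.17 in 4T07 and 4T1 (median 10.00), and its side contrast of 0.48 was lost with line as a random block. Of 25 macrophage and monocyte markers, Arg1 (change 3.16, SE 0.28, adjusted p = 1.78e-06) and Nos2 (1.77) rose and Adgre1 (-0.68) fell in all 4 pairs, while Csf1r (-0.11) did not pass. The count of 2 became 1 without 67NR array 2, 67NR array 3, 4T1 array 2 or 4T1 array 3 or with each pair on its own 6 arrays, and the fall became 0 without 67NR array 1, 4T07 array 1, 4T1 array 1 or 4T1 array 2. Of 27 T and NK cell markers, Gata3, which luminal mammary cells also express, was the 1 that rose in all 4 pairs (change 1.68, SE 0.16, adjusted p = 2.87e-06). Without 168FARN array 1, or with the mean over probesets, 1 marker of this list fell, and the mean over probesets gave 2 that rose. Cd3e (0.74) passed the side contrast alone and lost it with line as a random block. Of 16 B cell and plasma cell markers, 8 rose by the side contrast (50%, against 13.4% of all genes) and 0 in all 4 pairs; without 4T1 array 2, whose list mean of 5.69 stood under the 7.24 and 7.26 of the other 4T1 arrays, the count was 5, and without 168FARN array 1 it was 1.

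Of 17 antigen presentation genes, 14 rose by the side contrast (82.4%, against 13.4% of all genes), with a median change of 0.84. In all 4 pairs 2 rose (11.8%, against 3.89% of all genes), the immunoproteasome subunit Psmb10 (1.35) and H2-DMa (1.34). That count of 2 became 4 without 67NR array 1, 1 without 67NR array 2, 67NR array 3 or 4T1 array 2, 5 after quantile normalization and 4 after median centring. Of 24 interferon-stimulated genes, 2 rose in all 4 pairs (8.33%, against 3.89% of all genes), Parp14 (1.20) and the RNA sensor Ifih1 (1.22). Without 168FARN array 2, 4T1 array 1 or 4T1 array 3 this count was 1, and the mean over probesets added 1 that fell.

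Markers of other tissue cells were mostly not shared, as held for genes at large, of which 7.9% were shared. Of 22 endothelial markers 0 were called in all 4 pairs, and 1 rose in all 4 pairs after quantile normalization. By the side contrast 5 rose (22.7%, against 13.4% of all genes) and 1 fell (4.55%, against 21.1%). Pecam1 did not pass (change 0.28, SE 0.14, adjusted p = 0.155). No adipocyte marker of 19 and no muscle marker of 19 was called in all 4 pairs. By the side contrast 2 adipocyte markers (10.5%) and 1 muscle marker (5.26%) fell, against 21.1% of all genes. Adipoq (-0.57) was among them, a call lost without 67NR array 3 (-0.43), 168FARN array 1 (-0.51), 4T07 array 1 (-0.49), 4T07 array 3 (-0.51) or 4T1 array 1 (-0.53). Acta1 did not pass (-0.68, or -1.29 and called without 168FARN array 1). The heme synthesis enzyme Alas2 (-0.95) was the 1 of 4 erythroid markers that fell in all 4 pairs. Of 21 mammary secretory and luminal genes, 2 rose in all 4 pairs (9.52%, against 3.89% of all genes), Wfdc2 and Gata3, and 0 fell. The milk protein gene Csn2 was highest in 4T07: 5.47, 4.94 and 5.23 in 67NR, 4.68, 4.60 and 4.80 in 168FARN, 7.06, 8.44 and 9.44 in 4T07, and 6.10, 4.09 and 4.58 in 4T1. Its side contrast of 1.67 was lost with line as a random block.

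Of 23 genes linked to lung metastasis in breast cancer models, 4 rose in all 4 pairs (17.4%, against 3.89% of all genes) and 1 fell (4.35%, near the 4.01% of all genes). They were Tnc, the guidance receptor Robo1, between 4.97 and 5.61 in 67NR and 168FARN (median 5.45) and between 6.57 and 7.12 in 4T07 and 4T1 (median 6.85), a change of 1.45 (SE 0.13, adjusted p = 1.71e-06), Id3, and the actin-bundling Fscn1 (0.71), with Ereg falling. Fscn1 was lost without 67NR array 1 or 3, 4T07 array 2 or 3 or 4T1 array 2. The count of 4 became 2 without 67NR array 1, 67NR array 3, 4T07 array 3 or 4T1 array 2, and with each pair on its own 6 arrays. Spp1 (0.13), Id1 (0.23), Vcam1 (0.11) and Cxcr4 (0.15) did not pass the side contrast. Of 33 Hox genes, 4 rose in all 4 pairs (12.1%, against 3.89% of all genes): Hoxa2, between 6.04 and 6.64 in 67NR and 168FARN (median 6.35) and between 8.12 and 8.52 in 4T07 and 4T1 (median 8.44), a change of 2.05 (SE 0.12, adjusted p = 4e-08), Hoxa5 (2.33), Hoxa6 (1.31) and Hoxc8 (1.15). The count was 2 without 4T07 array 3 or with the mean over probesets, which also gave 1 that fell, and 1 when genes needed 5 probesets. Hoxa6 was also lost without 168FARN array 1 or 2, and Hoxc8 without 67NR array 1, 168FARN array 2 or 3, 4T07 array 1 or any 4T1 array.

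The lines of a side also differed from each other. Between 4T1 and 4T07, 357 genes were called (2.38%), 83 higher in 4T1 (0.552%) and 274 lower (1.82%), and between 168FARN and 67NR 3710 (24.7%). The first count moved between 156 and 531 when 1 array was left out, with 158 without 4T07 array 2, 156 without 4T1 array 1, 233 without 4T1 array 2 and 224 without 4T1 array 3. Of the 287 genes that rose at least 2-fold in every pair, 11 were also called between the lung-reaching lines and 40 between 67NR and 168FARN, and 238 were called in neither. Of the 178 that fell, these numbers were 18, 67 and 100. In 52 of the 287 and 37 of the 178, both lines of the low side lay in the background range.

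Single exon probesets were then tested against the other probesets of their gene with diffSplice, over 110320 probesets in 7349 genes. A relative change is that of a probeset minus that of the rest of its gene, on the log2 scale, and calls were made at an adjusted p under 0.05 where the relative change reached 1. The side contrast called 303 probesets higher (0.275%) and 295 lower (0.267%). In all 4 pairs, 78 probesets were higher (0.0707%) and 79 lower (0.0716%), 157 in all (0.142%) in 80 genes. The exons behind the probesets were not analysed here, and probesets are named by their number on the array. The relative levels of the 6 arrays a side did not overlap in 71 of the 78 and 75 of the 79. These probesets were called on the same arrays, which favours such separation, and its share over all probesets tested was not counted. diffSplice pools the variance over the probesets of a gene, so a noisy probeset is judged by the spread of its gene, and on simulated data its side contrast called many more unchanged probesets than the threshold allows, and its calls in all 4 pairs somewhat more. The counts of called probesets above are therefore likely too high, those of the side contrast most. A splicing index, which sets each probeset against its gene's median on each array and uses the spread of that probeset, called 90 of these 157 in all 4 pairs, and leaving out 1 array kept 112 to 136.

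Shared probesets lay mostly in genes that changed. Of the 157, 93.0% lay in genes called by the side contrast, against 42.4% of all probesets tested. In 109 the gene moved the other way from the relative change, and in 67 of these the probeset's own level differed by less than 0.5 between the sides while its gene changed by a median of 2.10 in absolute size. These 67 had own levels from 5.52 to 11.80 with a median of 7.73, against a median of 8.84 for all probesets tested. Of the 67, 0 lay under 5.08, but only probesets above a cut on their mean level entered the exon test, which favours this count. The count therefore cannot tell whether these probesets measured their gene or background. In 37 the gene moved the same way and in 11 it was not called.

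Moxd1, Serinc2 and Tnnt2 show the pattern. Probeset 4432992 of Moxd1 read 9.50, 9.64 and 9.36 in 67NR, 9.19, 9.60 and 9.56 in 168FARN, 9.43, 9.81 and 9.46 in 4T07, and 9.74, 9.67 and 9.38 in 4T1. It was flat (own change 0.11) in a gene that rose by 4.37. Probeset 4703994 of Serinc2 read 10.19, 9.94 and 10.16 in 67NR, 10.21, 10.12 and 10.18 in 168FARN, 10.90, 10.26 and 10.09 in 4T07, and 10.46, 10.16 and 10.58 in 4T1. Its relative change was -3.95 against a gene change of 3.96. Probeset 4602772 of Tnnt2, a troponin gene, read 10.66, 10.51 and 10.54 in 67NR, 10.52, 10.38 and 10.94 in 168FARN, 10.85, 10.39 and 10.99 in 4T07, and 10.98, 10.64 and 10.42 in 4T1. Relative to the gene it changed by -3.46 in a gene that rose by 3.93. Lad1 (4349128, -3.74), B3gnt3 (5416214, -3.35), Fzd6 (5267434, -3.26), Padi4 (4359173, -3.56), Gpa33 (5246215, -3.07) and Spint2 (4313416, -2.92) had probesets of the same kind by relative change, although the probesets of Gpa33 and Spint2 rose by 1.34 and 1.06 themselves. In genes that fell, Ephx1 (4699574, relative change 2.90), Usp14 (4385854, 2.71), Nradd (5067550, 2.23) and 1110051M20Rik (5308943, 2.13) each had a probeset whose own change was -0.64, 0.53, 0.12 and -0.48 in turn.

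**Figure D4:**
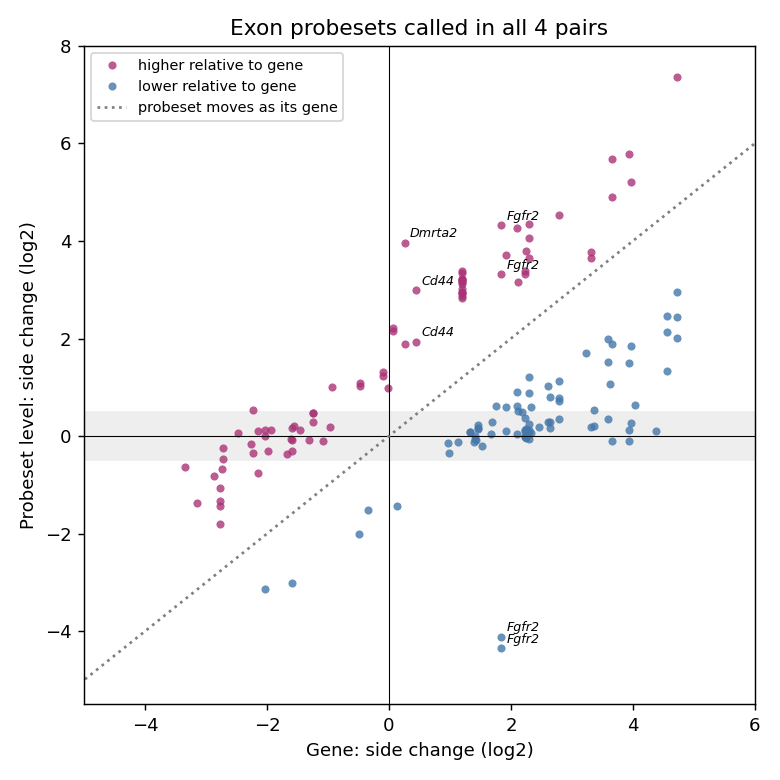
Change of the own level of each of the 157 shared probesets (vertical axis, log2) against the change of its gene (horizontal axis, log2), both as 4T07 and 4T1 minus 67NR and 168FARN; the grey band spans changes within 0.5 and the dotted line marks equal change. Of the 109 probesets in genes that moved the other way, 67 sit in the band, and the 2 lower probesets of Fgfr2 lie alone in the lower right.

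Other genes concentrated several shared probesets. Of the 80 genes, 48 had 1, and 9 genes with at least 4 held 54 of the 157. In Col7a1, the type VII collagen of anchoring fibrils, 14 of 115 probesets were higher relative to the gene, with own changes of 2.83 to 3.39 against a gene change of 1.20. Of these 14, 5 kept the call without 168FARN array 2, without 4T07 array 3 or by the splicing index, 6 without 4T07 array 2, 7 without 4T1 array 1 or with probesets limited to those above the 50th percentile, and 9 without 168FARN array 3. Card10, a scaffold of NF-kappaB signalling, had 9 of 33 (3 higher and 6 lower) and the actin-binding Dbn1 7 of 20 (2 higher and 5 lower), of which the splicing index kept 4 and the limit at the 50th percentile 3. In 14 genes shared probesets pointed in both directions. In Tns4, probeset 4954741 rose by 7.36 from background in a gene that rose by 4.73, and in Lad1 probeset 5022292 rose by 5.69; the splicing index did not call either of these.

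Fgfr2, a receptor for fibroblast growth factors with mutually exclusive exons IIIb in epithelia and IIIc in mesenchyme, held the 2 probesets with the largest relative change of the 157. At gene level it read 7.75, 7.95 and 7.58 in 67NR, 8.77, 7.86 and 8.73 in 168FARN, 9.65, 9.88 and 10.02 in 4T07, and 9.93, 10.10 and 10.09 in 4T1. This gave a change of 1.84 (SE 0.16, adjusted p = 1.16e-06), rising in all 4 pairs. Probeset 5179865 read 7.75, 7.74 and 7.16 in 67NR, 8.94, 7.61 and 8.88 in 168FARN, 3.49, 4.31 and 4.11 in 4T07, and 3.89, 3.87 and 3.72 in 4T1. Its relative change was -5.47, and the largest adjusted p of the 4 pairs was 1.71e-40 by diffSplice. This probeset lay in the background range in both lung-reaching lines. Probeset 5177161 read 7.32, 7.87 and 7.27 in 67NR, 8.64, 7.12 and 8.93 in 168FARN, 3.68, 4.35 and 4.62 in 4T07, and 2.54, 3.07 and 2.77 in 4T1. Relative to the gene it changed by -5.71 (largest adjusted p of the 4 pairs 2.58e-37 by diffSplice). In the opposite direction, probeset 5026159 read 5.01, 6.31 and 6.34 in 67NR, 6.97, 6.67 and 6.42 in 168FARN, 10.52, 10.56 and 10.79 in 4T07, and 10.65, 10.62 and 10.52 in 4T1. Its relative change was 3.34 (largest adjusted p of the 4 pairs 1.75e-19 by diffSplice). Probeset 5355690 rose from between 6.34 and 7.05 to between 9.86 and 10.27 (relative change 2.30).

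Over the 24 probesets of Fgfr2 tested, these 4 were the shared ones, and on each of them the 6 arrays of 4T07 and 4T1 lay apart from the 6 others. Across all 157 shared probesets, 3 had an own level that moved by at least 1 against a called gene, the 2 of Fgfr2 and probeset 4979678 of Ift172, a ciliary transport gene (own change 1.09, gene change -0.48), whose call in all 4 pairs was lost without 67NR array 3 or 4T07 array 3, by the splicing index and with the limit at the 50th percentile. The 2 lower probesets of Fgfr2 were not in the test when probesets had to lie above the 50th percentile, and were called in all 4 pairs under the other 16 settings tried. In Fgfr1, probeset 5333109 held its level (own change 0.13) while the gene fell by 1.94 (relative change 2.09).

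**Figure D5:**
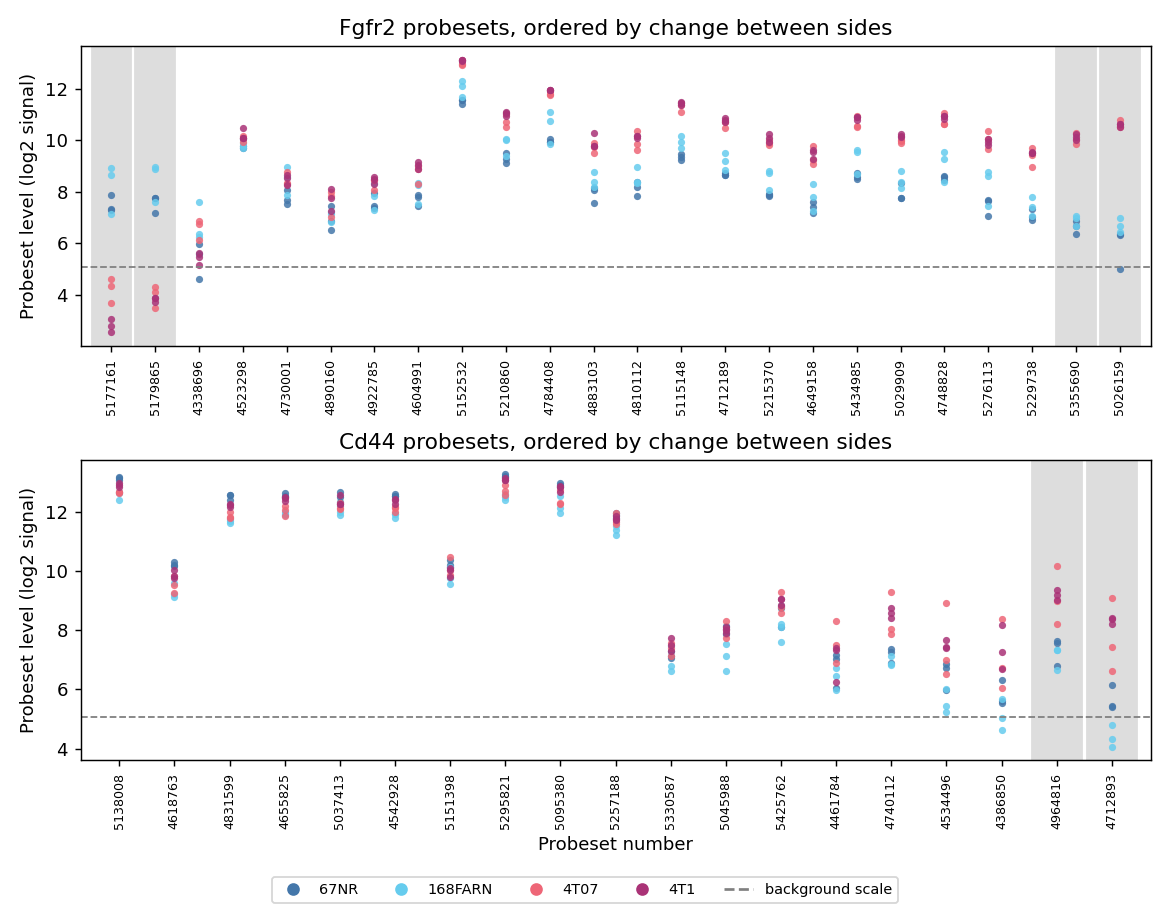
Log2 level of each tested probeset of Fgfr2 (24) and Cd44 (19) on each array, probesets ordered by their change between sides; grey bands mark the 4 and 2 probesets called in all 4 pairs, and the dashed line marks 5.08. Fgfr2 probesets 5177161 and 5179865 are low only on 4T07 and 4T1 arrays, while 5355690 and 5026159 are high only there.

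Cd44, a hyaluronan receptor with variable exons, had 2 shared probesets in a gene that did not pass the gene test (change 0.45, adjusted p = 0.0508 by limma). Probeset 4712893 read 5.46, 6.14 and 5.41 in 67NR, 4.07, 4.81 and 4.34 in 168FARN, 7.42, 6.64 and 9.10 in 4T07, and 8.38, 8.22 and 8.42 in 4T1. Relative to the gene it changed by 2.50 (largest adjusted p of the 4 pairs 9.47e-06 by diffSplice), and 4T07 array 3 was again the highest of its line. Probeset 4964816 had a relative change of 1.38, a call that the splicing index and 10 of the 12 fits without 1 array did not keep. Of the 157, 14 lay in genes that changed by less than 0.5, 11 higher and 3 lower. In Dmrta2, a transcription factor gene, probeset 5596969 read 4.13, 5.07 and 4.53 in 67NR, 4.39, 3.03 and 3.11 in 168FARN, 7.51, 8.32 and 7.76 in 4T07, and 8.22, 8.10 and 8.16 in 4T1. Its relative change was 3.47 in a gene that changed by 0.26. Etl4 had 2 such probesets (5241748 and 4852023, relative changes 2.16 and 2.21), rising from near background; the first was not called in all 4 pairs by the splicing index or without 67NR array 3, 168FARN array 2 or 4T1 array 1, and the second without 67NR array 2, 4T1 array 1 or 4T1 array 2. The limit at the 50th percentile kept neither of them, nor Cd44 4712893 and Dmrta2 5596969. Col4a1 had 1 (5242774, own change 1.03), which 10 of the 12 fits without 1 array did not keep.

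Of 55 genes whose exon use is known to differ in EMT or in tumours, 49 entered the exon test with 1381 probesets. Of these probesets, 5 were higher and 3 lower in all 4 pairs (0.579%, against 0.142% of all probesets tested), and they lay in 4 genes: Fgfr2, Cd44, Fgfr1 and Itgb4. The integrin gene Itgb4 rose by 2.46 while its probeset 4422167 changed by 0.18 (relative change -2.01). Fn1 had 1 probeset called by the side contrast and none in all 4 pairs (5201971, relative change -1.01).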

How the data were processed

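RNA of 12 primary tumours was hybridised to Affymetrix mouse exon arrays after biotin labelling, per the labels' protocols. The authors deposited 1 value per probeset and array; the scale is log2 as read from the deposited values, and background correction, summarization and normalization are not given in the sources used here. Of 228090 probesets, 207232 had 1 gene symbol in the platform annotation, 3882 several and 16976 none; 2111 older symbols were replaced by current ones, 14055 needed no change and 41 stayed unmatched. A gene's level was the median over its probesets, with at least 3, giving 15025 genes, and no further normalization was applied.

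limma 3.58.1 in R 4.3.3 fitted a mean per line over all 12 arrays, with the side contrast, the 4 pairs and the 2 contrasts within a side, and Benjamini-Hochberg adjustment over all genes. diffSplice tested 110320 probesets whose mean exceeded the 25th percentile, in genes above the 50th with at least 4 such probesets. Samples were grouped by the line in their titles. Arrays give no read depth, and 3 arrays a line limit the precision. Both tests were tried on simulated data. There, unchanged features had the same mean in all 4 lines, so differences between the lines of a side were not simulated. How many false calls such differences bring was therefore not measured. The gene test kept false calls within its threshold; diffSplice did not, by far for the side contrast and slightly for calls in all 4 pairs, so exon results rest on the latter.

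The members and gene lists were chosen with earlier results of these data known. Genes named by rule were the 15 highest and 15 lowest by their smallest pair change, up to 4 shared members of each list and direction, and a list of defining markers. Probesets named by rule were the 10 highest and 10 lowest, 1 per gene, the strongest shared one of each gene of the EMT exon list, and up to 5 in genes that changed by less than 0.5. Further list members, those that did not pass the test included, were named after their values were seen. Alternatives were the mean over probesets, at least 5 probesets, genes above background, quantile normalization, median centring, trended robust variance, a replicate block, each pair alone, line as a random block, the 4 line means, a splicing index, a stricter probeset filter and leaving out each array. Replicate numbers did not pair the arrays: same-numbered deviations correlated at -0.09 to 0.19.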

Additional observations from a re-analysis of the deposited data

Results flagged for a closer look

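Among the 30 genes that changed most in their weakest pair, these differed within a side by a limma contrast between its 2 lines. Tslp was lower in 4T1 than in 4T07 by a log2 difference of -3.24, although both lines lay far above 67NR and 168FARN. Within the other side, Sgcd differed by 0.54 and Sema3a by 2.34, both higher in 168FARN than in 67NR, while Eda2r differed by -1.59 and was higher in 67NR.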

How the results depend on the processing

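Each of the 2 sides is 2 lines, so the calls on single genes measure the spread between arrays of these lines. With line as a random block the side contrast called 783 genes higher and 884 lower (3630 at an unadjusted p under 0.05), and with the 4 line means 117 and 47 (2344 at an unadjusted p under 0.05). The count between 4T1 and 4T07 ranged from 156 to 531 when 1 array was left out. Limiting the exon test to probesets above the 50th percentile gave 174 higher and 171 lower by the side contrast and 50 higher in all 4 pairs; the splicing index gave 48. Fewer probesets were tested under the first of these, and for the other changes the cause was not tested. The balance of shared genes did change direction, from 584 higher and 603 lower to 746 and 638 after quantile normalization. Median centring gave 696 and 605. The median change of the genes with exons regulated in EMT or tumours went from -0.02 to 0.06 and 0.04 under these 2 scalings. Leaving out 1 array gave 486 to 618 shared genes higher, 418 to 611 lower, 241 to 314 and 150 to 198 of these at 2-fold or more, and 57 to 75 and 58 to 81 shared probesets. Quantile normalization moved the side contrast to 2600 higher and 2982 lower, and median centring to 2506 and 2872.

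With a replicate block, which rests only on shared numbers, the side contrast called 2054 genes higher and 3276 lower, 585 and 636 in all 4 pairs, 288 and 175 of these at 2-fold or more, 349 between 4T1 and 4T07 and 3862 between 168FARN and 67NR. The exon counts with the block were 305 and 299 by the side contrast and 93 and 78 in all 4 pairs.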

Other observations

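Of 13 mast cell genes, chosen after their values were seen, 8 fell in all 4 pairs (61.5%, against 4.01% of all genes) and 0 rose. Besides Cpa3 and Tpsab1, the transcription factor Gata2 (change -0.95) fell between measured levels. Mrgprb1, the IgE receptor chain Fcer1a, the receptor Mrgprb2 and the tryptase Tpsb2 fell into the background range, so they have no measured fold. The IgE receptor chain Ms4a2 lay in that range on both sides by its means of 4.43 and 2.55. The other 5 were not called in all 4 pairs. By the side contrast, the chymase Cma1 (-1.10) was lower, and the protease Mcpt1 (1.07) and Hdc (0.60), which makes histamine, were higher. Kit (-0.33) and the protease Mcpt2 (-0.79) did not pass it, Mcpt2 averaging 4.77 in 67NR and 8.93 in 168FARN.

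Of 64 genes of the semaphorin, ephrin, netrin and Slit families and their receptors, also chosen after their values were seen, 11 rose in all 4 pairs (17.2%, against 3.89% of all genes), 4 fell (6.25%, against 4.01%) and 49 did neither. Besides Sema3a, the semaphorins Sema3c (-3.56) and Sema5a (-3.07) and the receptor Plxna2 (-1.86) fell. Sema3f (2.10), the receptor Plxnb1 (2.57) and the ephrin Efna5 (1.74) were among those that rose, while Nrp1 (-0.34), Ntn4 (0.17) and Efnb3 (-0.17) were not called in all 4 pairs.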
